A study of Mus musculus with 6 samples.

Results

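Tubulins and the proteins that bind microtubules were followed here as 49 genes, chosen by a list of symbols: 4 alpha-tubulins, 7 beta-tubulins, 7 proteins that coat the microtubule lattice, 3 doublecortin genes, 4 stathmins, 5 collapsin response mediator proteins, 7 plus-end proteins, 3 neuron navigators, 3 minus-end proteins, 2 severing enzymes and 4 genes of the LIS1 and dynein group. All 49 were among the 54146 genes in the count tables, and all 49 passed the filter on low counts that left 16897 genes for testing. The data are RNA sequencing of cells sorted from mouse cortex at E15.5 (embryonic day), 24 hours after in utero electroporation at E14.5. In the Mir group (3 libraries) the electroporated cells carried a plasmid that makes a precursor hairpin of the microRNA miR-3607 from the U6 promoter. In the Scr group (3 libraries) the hairpin plasmid was replaced by the scrambled-sequence control plasmid of the same vector kit. Both groups also carried a plasmid for green fluorescent protein (GFP) under the CAG promoter, at 0.7 µg/µl beside 1 µg/µl of hairpin plasmid, and GFP-positive cells were collected. The animals were wild type; the protocol names the ICR background and the sample characteristics name C57BL/6. Each library held the pooled cells of 2 embryos, and the p-values below reflect how such pools vary. The U6 promoter is not specific to a cell type, so any cell that took up the plasmid could make the hairpin. The level of the microRNA itself was not analysed here.

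Microtubules are hollow polymers of alpha- and beta-tubulin that grow and shrink mainly at their plus ends. In a newborn cortical neuron they fill the leading process and the axon, and they carry the dynein motor pull on the nucleus during migration from the ventricle to the cortical plate. Microtubule-associated proteins stabilise, bundle, sever or destabilise them. Mutations in several of these genes, among them TUBA1A, TUBB2B, TUBB3, DCX, PAFAH1B1 (LIS1), NDE1 and DYNC1H1 in humans, disturb cortical layering and cause lissencephaly or related malformations.

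The expressed strand of the hairpin is shown because the question of the study was what this microRNA does to transcripts. It was read as the segment after the loop of the oligonucleotide in the submitters' protocol, which names the 5p arm, and capitals mark the seed, bases 2 to 8. Of 1679 mouse mature miRNAs in the RefSeq table, 0 held this strand and 1, mmu-miR-6902-3p, had the same bases 2 to 8. The 4 members with an 8-base match, TCACATGA, in the 3′ UTR are shown as the sense strand of the transcript (GENCODE M21, GRCm38), with the match in capitals.
miR-3607 strand: gCATGTGAtgaagcaaatcag
Clasp1: agccccgaatgTCACATGAatgtcagtctg
Nav2: accgtgtccatTCACATGAgtgttgtgcct
Pafah1b1: atagttgctttTCACATGAcatcttgcact
Ndel1: tgccgttggttTCACATGAttgcacttttg

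A 3′ UTR could be searched in 47 of the 49 members, on the transcript strand alone. A match to TCACATG or CACATGA (the 8-base match TCACATGA holds both) was present in 11 of 47 members (23.4%), against 2197 of 12714 tested genes with a searched 3′ UTR (17.3%). The 8-base match was in 4 of 47 members (8.51%), against 339 of 12714 genes (2.67%). The 3′ UTRs had a median of 1059 bases in members and 1016.0 bases over all genes searched. The 7 members with 7-base matches alone were Tuba4a, Map1a, Dcx, Dpysl2, Nav1, Nav3 and Katna1. Log2 fold changes, Mir over Scr, had a median of -0.22 in the 11 members with a match and -0.23 in the 38 other members. These 38 include the members whose 3′ UTR could not be searched. The median was -0.08 in the 4 members with an 8-base match, of which 3 were below 0. A match is a run of letters and was not tested as a binding site.

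The tubulin sequences are shown because near-identical copies decide how far a read of 50 bases can be assigned to a gene. Coding sequences of Tuba1a (chr15:98949837-98953703, minus strand), Tuba1b (chr15:98931425-98934565, minus strand) and Tuba1c (chr15:99029891-99038110, plus strand) were 97.1 to 98.3% identical, and those of Tubb2b (chr13:34126748-34130466, minus strand) and Tubb2a (chr13:34074274-34078007, minus strand) were 96.5% identical. The stretches of 50 bases in which they differ most follow, at coding positions 650 to 699 for alpha-tubulins and 122 to 171 for beta-tubulins, with differences from the first gene in capitals.
Tuba1a: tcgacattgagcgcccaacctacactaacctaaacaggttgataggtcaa
Tuba1b: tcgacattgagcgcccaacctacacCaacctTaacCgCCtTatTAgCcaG
Tuba1c: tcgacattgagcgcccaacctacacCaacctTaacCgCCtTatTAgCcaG
Tubb2b: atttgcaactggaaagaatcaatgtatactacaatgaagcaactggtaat
Tubb2a: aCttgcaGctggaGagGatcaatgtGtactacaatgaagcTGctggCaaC

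Of the words of 50 bases in the annotated transcripts of Tuba1b, 74.3% also occurred in another gene. The share was 64.3% for Tuba1a, 52.7% for Tuba1c, 49.6% for Tubb2a, 37.8% for Tubb4b (a pseudogene being the main partner) and 36.9% for Tubb2b. By contrast it was 0% for Tubb3 and Tubb6, 0.0892% for Tubb5 and 0.184% for Tubb4a. Outside the tubulins, Stmn1 shared 17.9% and Camsap1 13% of words, chiefly with processed pseudogenes. A readthrough gene, Gm49450, covers 26.2% of the exons of Tuba1a and 22.7% of those of Tuba1b on the same strand, and was listed at 0 in all 6 libraries. Of the counts listed for a library, summary lines included, 39.3 to 44.4% were not uniquely aligned and stayed out of the gene counts. Values of Tuba1a, Tuba1b, Tuba1c, Tubb2a, Tubb2b, Tubb4b, Stmn1 and Camsap1 are therefore uncertain in level, and those of Tubb3, Tubb4a, Tubb5 and Tubb6 depend little on shared sequence. Tuba4a shares 37.3% of its exons with Stk16 on the opposite strand, and the library kit does not mark strand.

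**Figure D1:**
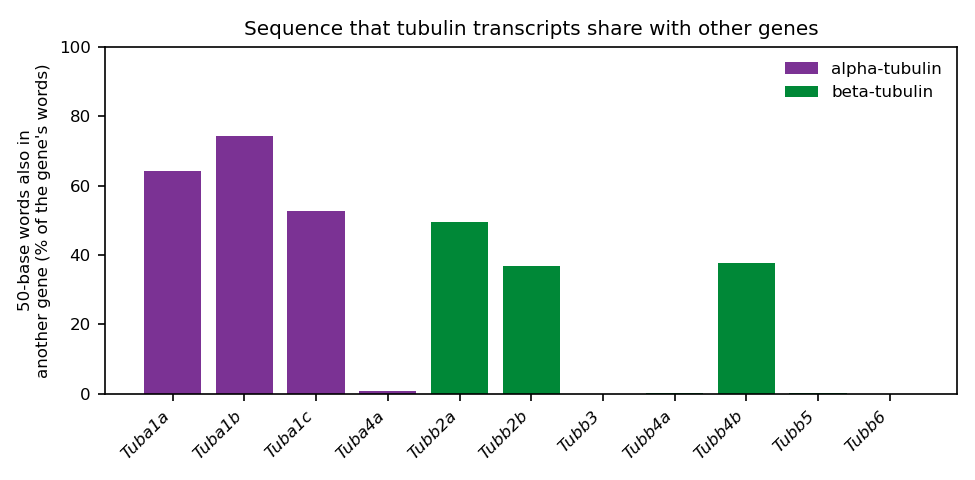
Share of each tubulin gene's words of 50 bases (vertical axis, percent) that also occur in another annotated gene, for 4 alpha-tubulins and 7 beta-tubulins (one bar a gene). Tuba1b (74.3%) and Tuba1a (64.3%) stand highest, and the bars of Tubb3, Tubb4a, Tubb5 and Tubb6 lie at or near 0.

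Counts assigned to genes ran from 14671557 to 15847663 in Mir libraries and from 12724511 to 16684038 in Scr libraries. The samples are labelled as cortical progenitors, and markers of radial glia (12 genes), intermediate progenitors (10 genes) and postmitotic cortical neurons (18 genes, none of them a member) were all detected, with 0 of them at 0 counts in any library. Summed CPM (counts relative to normalised library size) of the neuron markers were 5149 to 5608 in Mir libraries and 5973 to 6500.1 in Scr libraries. Those of the radial glia markers were 1908 to 2918 in Mir libraries and 1543 to 2246 in Scr libraries. Scr 2 stood apart in interneuron markers (11 genes), which mark cells born outside the cortex. They summed to 1187 CPM in Scr 2, against 181 to 418 CPM in Mir libraries and 322 to 444 CPM in the other 2 Scr libraries. Mir 2 was the highest library in markers of pericytes and meninges (8 genes), at 114 CPM, against 3.24 and 26.2 CPM in Mir 1 and 3. Scr 1, 2 and 3 had 49.8, 93.3 and 21.6 CPM of these. In Mir 2 the sum came mainly from Col1a2 (39.5 CPM), Col1a1 (34.5 CPM), Dcn (28.9 CPM) and Lum (9.82 CPM). Endothelial markers (10 genes) summed to 4.65 to 41.3 CPM in Mir libraries, with 7, 6 and 1 of them at 0, and to 16.1 to 215 CPM in Scr libraries, with at most 1 at 0. Summed CPM of red blood cell markers (6 genes) were 1.59 to 574 in Mir libraries and 242 to 856 in Scr libraries, and those of microglia markers (9 genes) 10.1 to 53.3 in Mir libraries and 20.1 to 74.3 in Scr libraries. In both lists Mir 1 and Mir 2 were the lowest libraries. Where the fold change of a single gene printed below moved by over 1.5 times without Scr 2, both values are given. Tubb4b and Tuba1b are exceptions, with CPM given in place of the second value.

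No member passed the threshold of an adjusted p under 0.05 in edgeR's quasi-likelihood test, higher or lower; over all genes tested 0% were called higher and 0.00592% lower, a single gene (Ftl2-ps, a ferritin pseudogene, named after its value was seen). Most members nevertheless had lower means in Mir cells. The log2 fold change, Mir over Scr, was below 0 in 38 of 49 members (77.6%), against 51.2% of all genes tested, and its median was -0.22, against -0.01 over all genes. At an unadjusted p under 0.05, 12 of 49 members were lower in Mir (24.5%), against 7.93% of all genes, and 0 were higher, against 6.57% of all genes. The count of 12 became 6 without Mir 2 (4.45% of all genes lower), 8 without Scr 2 (5.47%) and 21 without Scr 1 (8.58%). The 12 were Tuba1a, Tubb2b, Tubb4a, Map1b, Mapt, Dclk1, Stmn2, Stmn3, Dpysl3, Nav1, Nav3 and Ndel1. In 8 members all 3 Mir libraries lay below all 3 Scr libraries (16.3%, against 10.3% of all genes), and in 1, Spast, they all lay above (2.04%, against 9.77%). DESeq2 on the same counts called 4 of the 48 members to which it gave an adjusted p, all lower: Tubb4a, Dpysl3, Stmn3 and Nav3 (8.33%, against 2.51% of genes called lower and 1.86% called higher). Limma-voom called 0 members and 0% of genes in either direction, with 12 members lower at an unadjusted p under 0.05.

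The library Scr 2 was the highest of the 6 in 33 of 49 members, and in 4252 of 16897 genes tested (25.2%). Summed over the 49 members, levels were 14107, 13213 and 16046 CPM in Mir 1, 2 and 3, against 15103, 23174 and 18370.2 CPM in Scr 1, 2 and 3, so that Mir 3 lay above Scr 1 and the groups overlapped. With Scr 2 left out, 33 of 49 members were below 0, the median was -0.08, and 8 members were lower and 3 higher (Dclk2, Mapre3 and Map6) at an unadjusted p under 0.05, against 947 lower and 1166 higher of 17320 genes tested. Of the 12 members above, 8 then kept a p under 0.05, all except Mapt, Stmn2, Dclk1 and Map1b, and all 12 stayed below 0.

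**Figure D2:**
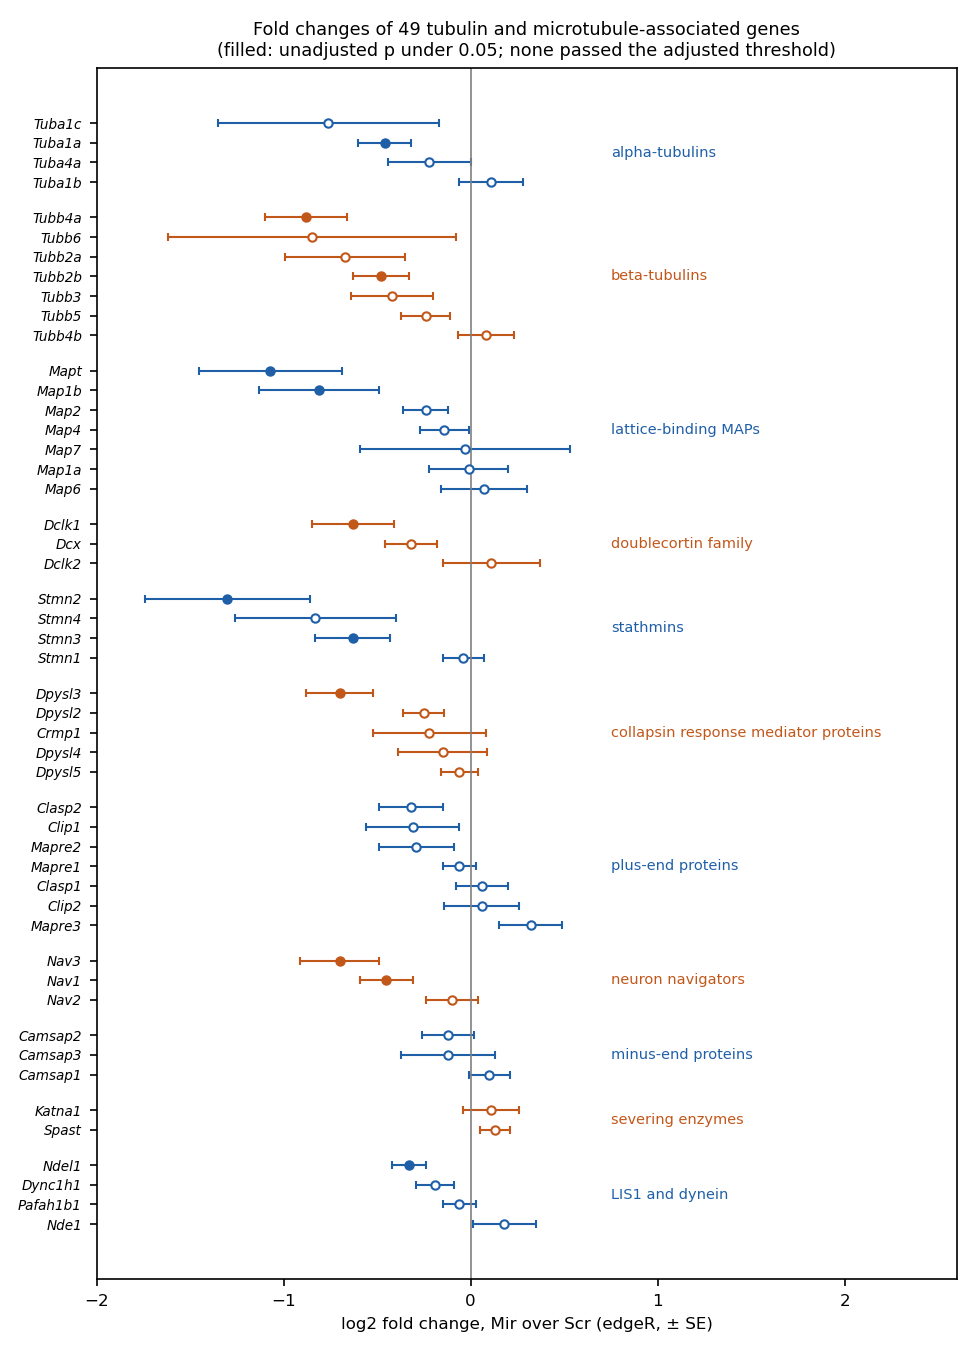
Log2 fold change of each of the 49 members, Mir over Scr (horizontal axis; points, edgeR estimates from 3 Mir and 3 Scr libraries; bars, ± SE), grouped by role. Filled points, the 12 members with an unadjusted p under 0.05, all lie left of 0, from Stmn2 at -1.30 to Ndel1 at -0.33; plus-end, minus-end and severing proteins lie between -0.32 and 0.32.

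Marker lists differed between libraries alongside the members. Median log2 levels of the cortical neuron markers, relative to the Scr mean, were -0.45, -0.50 and -0.23 in Mir 1, 2 and 3, against -0.17, 0.26 and -0.01 in Scr 1, 2 and 3. For the 49 members they were -0.23, -0.26 and -0.14 in Mir libraries, against -0.20, 0.27 and -0.07 in Scr libraries, in the same order. Both sets thus had their highest library in Scr 2 and their lowest in Mir 2. The cortical neuron markers did not all go one way. With all 6 libraries, 13 of the 18 had a log2 fold change below 0 and 5 above 0 (Tbr1, Neurod2, Rbfox3, Elavl4 and Nrcam). Interneuron markers were at -1.69, -2.03 and -0.58 in Mir libraries, against -0.88, 1.20 and -0.32 in Scr libraries. Intermediate progenitor markers ran the other way, with 0.48, 0.71 and 0.25 in Mir libraries, against 0.20, -0.31 and 0.03 in Scr libraries. Markers of S and G2/M phase were at 0.31, 0.28 and 0.50 in Mir libraries, against 0.08, -0.35 and 0.27 in Scr libraries. The part of these cell types in the members' values was not tested, and in bulk RNA fewer cells of a type and less RNA per cell cannot be told apart.

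**Figure D3:**
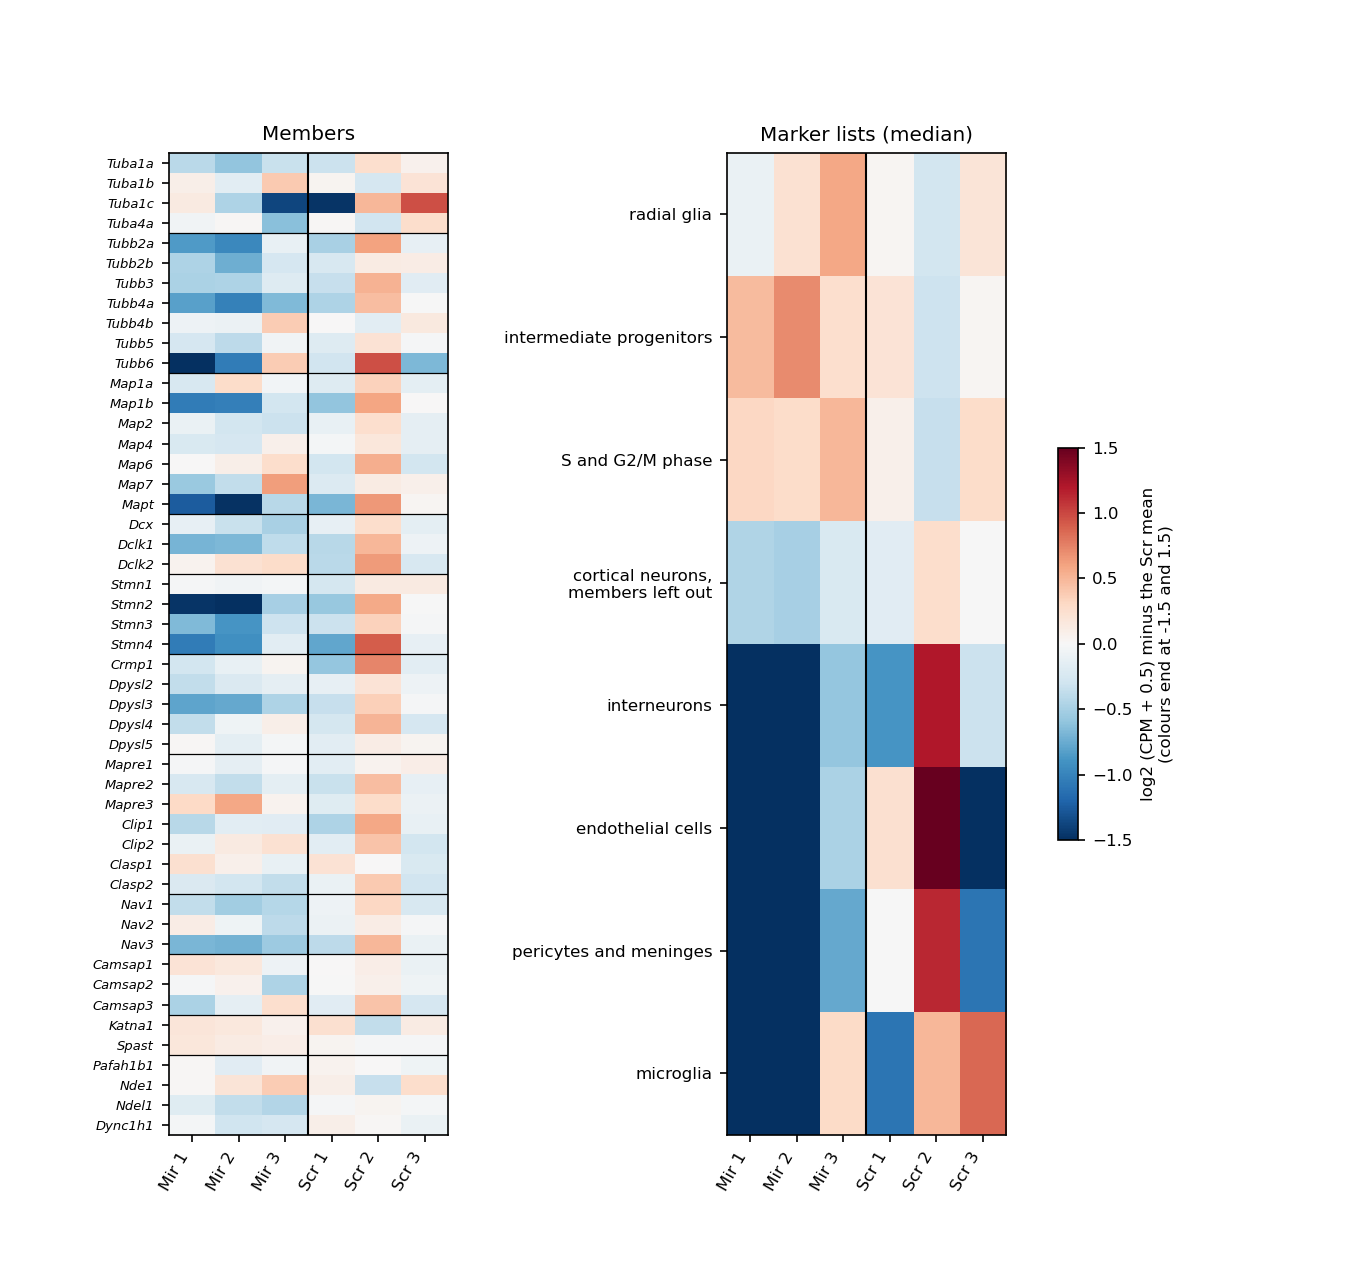
Level of each member (left) and median level of 8 marker lists (right) in each library, as log2 (CPM + 0.5) minus the mean of the Scr libraries (colour; the scale ends at -1.5 and 1.5). Mir libraries are the 3 left columns of each panel. Scr 2 is the reddest column among the members and, by the median of tested genes, for interneuron, endothelial and pericyte markers. In summed CPM of the pericyte and meningeal markers Mir 2 was highest (114 CPM, against 93.3 CPM in Scr 2).

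Among the alpha-tubulins, Tuba1a was by far the most abundant, at 1334 CPM per kb of exon in Mir cells and 1828 CPM per kb in Scr cells, while Tuba1b was at 99.6 CPM per kb in Mir cells and 92.0 CPM per kb in Scr cells. Tuba1a, the main alpha-tubulin of migrating neurons, had 2467, 2163 and 2583 CPM in Mir 1, 2 and 3, against 2604, 3882 and 3404 CPM in Scr 1, 2 and 3. The groups did not overlap, although Mir 3 and Scr 1 were nearly level. Its log2 fold change was -0.46 ± 0.14 (SE), with an adjusted p of 0.252 in edgeR, and -0.32 without Scr 2. Tuba1b, a widely expressed alpha-tubulin, had 182, 154 and 225 CPM in Mir libraries, against 176, 144 and 198 CPM in Scr libraries, which overlapped. Tuba1c ranged from 39.2 to 112 CPM in Mir libraries and from 36.6 to 201 CPM in Scr libraries, and Tuba4a from 16.2 to 25.6 CPM in Mir libraries and from 20.7 to 30.6 CPM in Scr libraries. Summed before the fit, so that the split of counted reads among copies does not matter (reads not uniquely aligned are absent from the sum too), the 4 alpha-tubulins had a log2 fold change of -0.43 ± 0.14 (SE) with an adjusted p of 0.263 in edgeR.

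Of the beta-tubulins, Tubb4a, a beta-tubulin of neurons and myelinating glia, differed most. It had 176, 154 and 196 CPM in Mir 1, 2 and 3, against 226, 429 and 309 CPM in Scr 1, 2 and 3. Every Mir library lay below every Scr library, and the log2 fold change was -0.88 ± 0.22 (SE), or -0.61 without Scr 2. Its adjusted p was 0.212 in edgeR and 0.00478 in DESeq2. Tubb2b, a beta-tubulin of the developing nervous system, had 185, 153 and 214 CPM in Mir libraries, against 216, 279 and 276 CPM in Scr libraries, with a log2 fold change of -0.48 ± 0.15 (SE) and an adjusted p of 0.252 in edgeR. The groups did not overlap, with a narrow gap between Mir 3 and Scr 1, and the log2 fold change was -0.42 without Scr 2. Its near copy Tubb2a was at 103 to 186 CPM in Mir libraries and 144 to 307 CPM in Scr libraries, and overlapped.

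Tubb3, the neuron-specific beta-tubulin used as the marker TuJ1, had 507, 509.6 and 616 CPM in Mir 1, 2 and 3, against 556, 1009 and 625 CPM in Scr 1, 2 and 3. Scr 2 stood above the other 5 libraries, which overlapped. Its log2 fold change was -0.42 ± 0.22 (SE), or -0.12 without Scr 2. Tubb5, the most abundant beta-tubulin per length at 690.5 CPM per kb in Mir cells and 814 CPM per kb in Scr cells, had 2257, 2041 and 2593 CPM in Mir libraries, against 2343, 3129.9 and 2654 CPM in Scr libraries. Its log2 fold change was -0.24 ± 0.13 (SE), or -0.12 without Scr 2 and -0.15 without Mir 2. Tubb4b was at 149.6 to 206 CPM in Mir libraries and 142 to 176 CPM in Scr libraries. Tubb6 was the lowest, at 0.952 to 9.55 CPM in Mir libraries and 4.33 to 14.6 CPM in Scr libraries. Neither Tubb5, Tubb4b nor Tubb6 separated the groups.

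Shares within the tubulin pools differed between groups for several genes. Tubb4a took 5.19, 4.94 and 4.88% of beta-tubulin counts in Mir 1, 2 and 3, against 6.2, 8.08 and 7.31% in Scr 1, 2 and 3, so that the groups did not overlap in share either. Tubb5 took 65.6 ± 1.06% in Mir cells and 62 ± 2.71% in Scr cells (SD, n = 3 each), and Tubb3 took 15.6 ± 0.726% in Mir cells and 16.3 ± 2.32% in Scr cells. Tubb5 was at 64.5% or above in Mir libraries and at 64.2% or below in Scr libraries. Tubb4b took 4.44, 4.8 and 5.12% in Mir libraries, against 4.38, 2.67 and 4.17% in Scr libraries, which did not overlap. Of alpha-tubulin counts Tuba1a took 89.4 ± 0.823% in Mir cells and 91 ± 1.98% in Scr cells, which overlapped. Tuba1b took 6.36 to 7.85% in Mir libraries and 3.43 to 6.2% in Scr libraries, which did not overlap. Shares within a pool are not independent, since a fall in one gene raises the shares of the others. In CPM, Tubb5, Tubb4b and Tuba1b overlapped between groups, with log2 fold changes of -0.24, 0.08 and 0.11. Scr 2 was the lowest library in Tubb4b (142 CPM) and in Tuba1b (144 CPM). In Scr 1 and 3, Tubb4b had 159.9 and 176 CPM and Tuba1b had 176 and 198 CPM, each inside the range of the Mir libraries. Tubb4b and Tuba1b are also uncertain in level because of shared sequence. How often shares separate by chance was not tested. Summed, the 7 beta-tubulins had a log2 fold change of -0.33 ± 0.15 (SE), or -0.17 without Scr 2, with an adjusted p of 0.362 in edgeR.

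**Figure D4:**
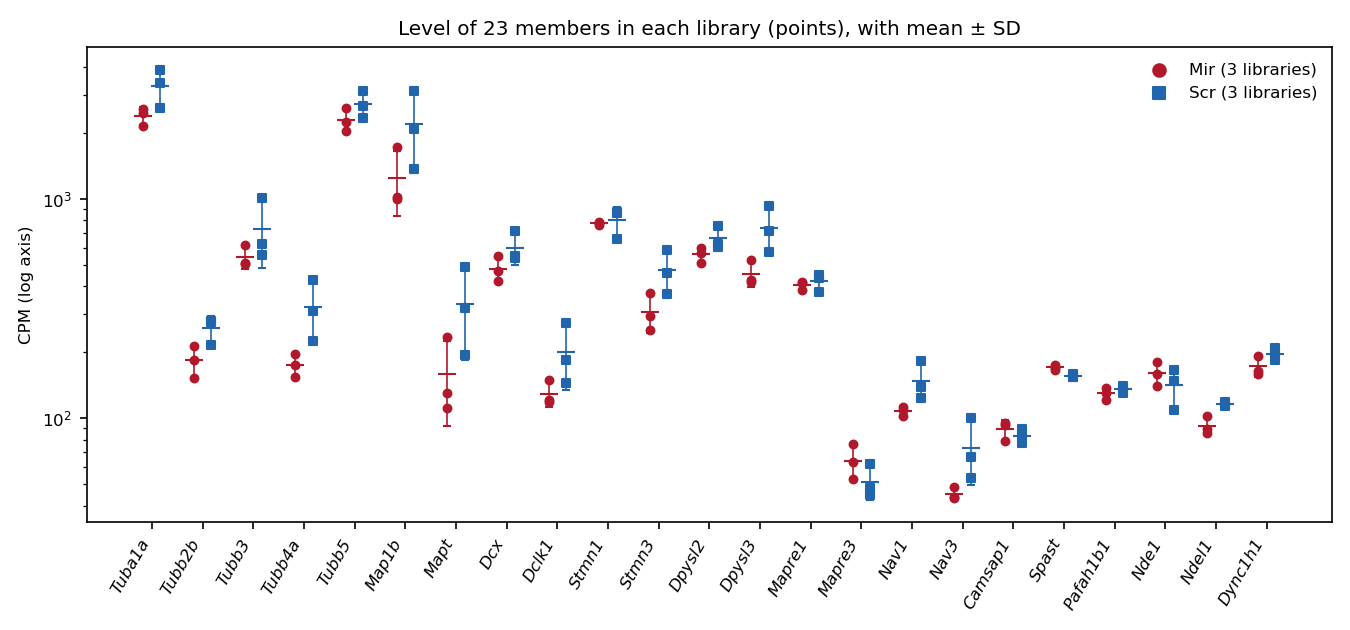
CPM (vertical axis, log scale) of 23 members in the 3 Mir libraries (red circles, left of each pair) and the 3 Scr libraries (blue squares), with mean and SD as bars. Tubb4a, Dpysl3, Nav3 and Ndel1 separate the groups, whereas Mapre1, Pafah1b1 and Camsap1 overlap.

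Among the lattice-binding proteins, Mapt and Map1b had log2 fold changes furthest from 0, with Map2 between these and the others. Mapt (chr11:104231390-104332090), which encodes the axonal protein tau, had 131, 111 and 234 CPM in Mir 1, 2 and 3, against 194, 489.6 and 318 CPM in Scr 1, 2 and 3. Mir 3 lay above Scr 1, so the groups overlapped despite a log2 fold change of -1.07 ± 0.38 (SE), with an adjusted p of 0.282 in edgeR. It was -0.69 without Scr 2. Map1b (chr13:99421446-99516540), a MAP of growing axons, had 1001, 1023 and 1722 CPM in Mir libraries, against 1379.7, 3119 and 2082 CPM in Scr libraries. The same 2 libraries overlapped, and the log2 fold change was -0.81 ± 0.32 (SE), or -0.47 without Scr 2. Map2, a MAP of dendrites and cell bodies, was at 399 to 468 CPM in Mir libraries and 456 to 594 CPM in Scr libraries. The others, Map1a, Map4, Map6 and Map7, had log2 fold changes from -0.14 to 0.07, and from -0.052 (Map4) to 0.40 (Map6) without Scr 2. Map7 was barely detected at 0.444 to 1.63 CPM in Mir libraries and 0.7 to 1.01 CPM in Scr libraries.

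Dcx (chrX:143855842-143933311), the X-linked gene of doublecortin in migrating neurons, had 548, 472 and 425 CPM in Mir 1, 2 and 3, against 548, 716 and 538 CPM in Scr 1, 2 and 3. Mir 1 was level with Scr 1 and above Scr 3. Its log2 fold change was -0.32 ± 0.14 (SE), with an adjusted p of 0.351 in edgeR, and -0.18 without Scr 2. Dclk1, a kinase with doublecortin domains, had 119, 121 and 149 CPM in Mir libraries, against 145, 273 and 184 CPM in Scr libraries, with a log2 fold change of -0.63 ± 0.22 (SE), or -0.35 without Scr 2. It overlapped by Mir 3 alone. Dclk2 was at 155 to 180.5 CPM in Mir libraries and 113 to 233 CPM in Scr libraries; its log2 fold change was 0.11 ± 0.26 (SE), and 0.50 without Scr 2.

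Stathmins bind free tubulin dimers and destabilise microtubules. The neuronal members had lower means in Mir cells, while Stmn1, which is also made in progenitors, hardly differed. Stmn1 had 785, 766 and 778 CPM in Mir 1, 2 and 3, against 661, 868 and 870.0 CPM in Scr 1, 2 and 3, with a log2 fold change of -0.04 ± 0.11 (SE), or 0.017 without Scr 2. Its Mir libraries lay inside the range of the Scr libraries. Stmn3 had 294, 252 and 373 CPM in Mir libraries, against 371, 588 and 459 CPM in Scr libraries. The overlap was slight, Mir 3 against Scr 1, and the log2 fold change was -0.63 ± 0.20 (SE), with an adjusted p of 0.252 in edgeR and 0.041 in DESeq2, and -0.44 without Scr 2. Stmn2 (SCG10), a protein of growth cones given here because its fold change was the lowest of the 49, had 188, 113 and 370.3 CPM in Mir libraries, against 353, 776 and 523 CPM in Scr libraries. Its log2 fold change was -1.30 ± 0.44 (SE), with an adjusted p of 0.274 in edgeR, and -0.97 without Scr 2; Mir 3 and Scr 1 overlapped. Stmn4 was at 56.8 to 106 CPM in Mir libraries and 68.3 to 222 CPM in Scr libraries, with a log2 fold change of -0.83 ± 0.43 (SE), or -0.24 without Scr 2.

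Collapsin response mediator proteins bind tubulin dimers and act in axon growth and guidance. Dpysl3 (CRMP4) had 418, 427 and 527 CPM in Mir 1, 2 and 3, against 571, 932 and 717 CPM in Scr 1, 2 and 3. All Mir libraries lay below all Scr libraries, with a log2 fold change of -0.70 ± 0.18 (SE), or -0.50 without Scr 2, and an adjusted p of 0.214 in edgeR and 0.0101 in DESeq2. Dpysl2 (CRMP2), the best known member of the family, had 511, 567 and 600.2 CPM in Mir libraries, against 604, 758 and 627 CPM in Scr libraries. These did not overlap either, but Mir 3 and Scr 1 were nearly level, and the log2 fold change was -0.25 ± 0.11 (SE), or -0.14 without Scr 2. Crmp1, Dpysl4 and Dpysl5 overlapped, with log2 fold changes of -0.22, -0.15 and -0.06. Without Scr 2 they were 0.24, 0.16 and -0.0050.

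Neuron navigators are large proteins that track growing plus ends in extending neurites. Nav3 (chr10:109681259-110456204) had 43.8, 43.2 and 48.5 CPM in Mir 1, 2 and 3, against 53.7, 100 and 66.4 CPM in Scr 1, 2 and 3. Nav1 (chr1:135434580-135607295) had 113, 102 and 109 CPM in Mir libraries, against 139, 182 and 124 CPM in Scr libraries. In both genes the groups were apart and the Mir libraries lay close together. Log2 fold changes were -0.70 ± 0.21 (SE) for Nav3 and -0.45 ± 0.14 (SE) for Nav1, with adjusted p-values of 0.246 and 0.256 in edgeR, and -0.41 and -0.28 without Scr 2. Nav2, with the 8-base seed match shown above, was at 45.8 to 65.5 CPM in Mir libraries and 56.8 to 65.2 CPM in Scr libraries, and its log2 fold change was -0.10 ± 0.14 (SE), or -0.047 without Scr 2.

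Plus-end proteins of the EB, CLIP and CLASP families had log2 fold changes from -0.32 to 0.32 with all libraries. Mapre1 (EB1), which recognises the growing end, had 417, 384 and 415 CPM in Mir 1, 2 and 3, against 377, 437 and 452 CPM in Scr 1, 2 and 3, with a log2 fold change of -0.06 ± 0.09 (SE), or -0.035 without Scr 2. Mapre3 (EB3), its neuron-enriched relative, had the highest fold change of the 49. It had 62.9, 76.6 and 53.1 CPM in Mir libraries, against 44.9, 61.6 and 47.9 CPM in Scr libraries, which overlapped, with a log2 fold change of 0.32 ± 0.17 (SE) and an adjusted p of 0.436 in edgeR. It was 0.47 without Scr 2. Mapre2, Clip1, Clip2, Clasp1 and Clasp2 had log2 fold changes from -0.32 to 0.06, and from -0.095 to 0.31 without Scr 2, and none separated the groups. Clasp1, with an 8-base seed match, was at 145 to 186 CPM in Mir libraries and 134 to 182 CPM in Scr libraries.

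Camsap1, which holds minus ends and is mutated in a form of lissencephaly in humans, had 95.3, 92.9 and 78.6 CPM in Mir 1, 2 and 3, against 83.0, 89.0 and 77.1 CPM in Scr 1, 2 and 3. Its log2 fold change was 0.10 ± 0.11 (SE), and those of Camsap2 and Camsap3 were both -0.12; without Scr 2 the 3 were 0.15, -0.085 and 0.13. None of the 3 separated the groups. Spast, which encodes the severing enzyme spastin, had 175, 169.9 and 167 CPM in Mir libraries, against 160.1, 154 and 154 CPM in Scr libraries. It was the only member whose Mir libraries all lay above the Scr libraries, with a log2 fold change of 0.13 ± 0.08 (SE) and an adjusted p of 0.479 in edgeR. Katna1, the catalytic subunit of katanin, was at 77.0 to 83.6 CPM in Mir libraries and 57.2 to 87.3 CPM in Scr libraries.

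The LIS1 and dynein genes, which couple the nucleus to the motor, differed little apart from Ndel1. Ndel1 (chr11:68821434-68871858), a partner of LIS1 and dynein that carries the 8-base seed match shown above, had 102, 89.8 and 85.4 CPM in Mir 1, 2 and 3, against 115, 119 and 114 CPM in Scr 1, 2 and 3. Its groups were apart, its Scr libraries lay close together, and the log2 fold change was -0.33 ± 0.09 (SE), or -0.31 without Scr 2. The adjusted p was 0.236 in edgeR and 0.0668 in DESeq2. Pafah1b1 (LIS1, chr11:74673949-74724670), also with an 8-base match, had 138, 121 and 131 CPM in Mir libraries, against 141, 137 and 130.0 CPM in Scr libraries, with a log2 fold change of -0.06 ± 0.09 (SE). The groups overlapped. Nde1, the paralog of Ndel1 used by dividing progenitors, had 141, 159 and 181 CPM in Mir libraries, against 148, 109 and 167 CPM in Scr libraries, with a log2 fold change of 0.18 ± 0.17 (SE), or 0.022 without Scr 2. Dync1h1, the dynein heavy chain, had 193, 159.8 and 165 CPM in Mir libraries, against 209, 199 and 184 CPM in Scr libraries, with a log2 fold change of -0.19 ± 0.10 (SE). Mir 1 of Dync1h1 lay above Scr 3, and both Nde1 and Dync1h1 overlapped between groups.

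**Figure D5:**
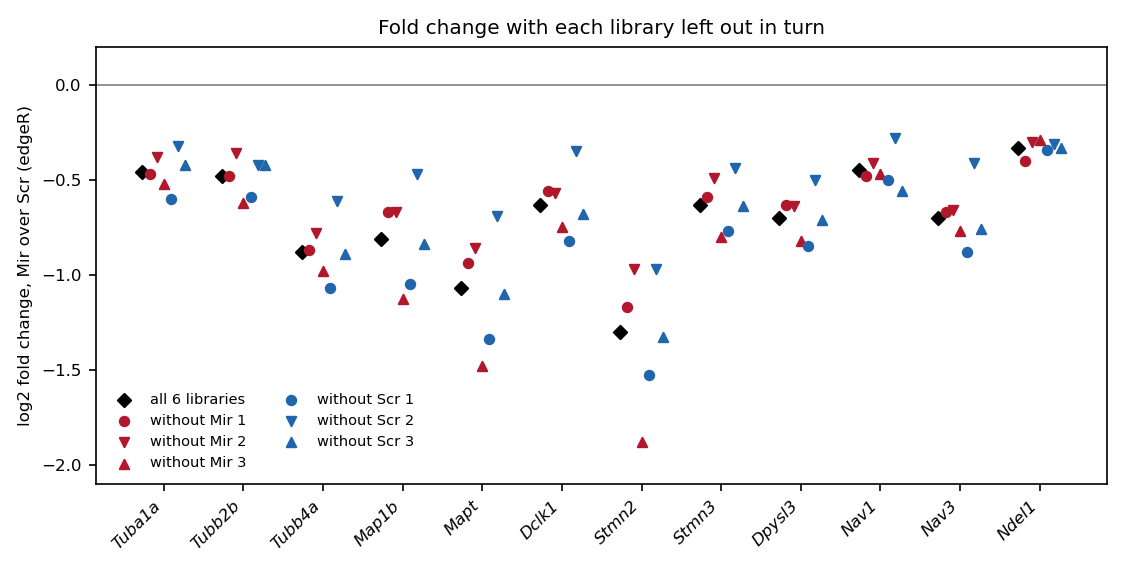
Log2 fold change, Mir over Scr (vertical axis), of the 12 members with an unadjusted p under 0.05, with all 6 libraries (black) and with each Mir library (red) or Scr library (blue) left out in turn. Every point lies below 0; leaving out Scr 2 brings Stmn2 to -0.97 and Mapt to -0.69, while Ndel1 stays between -0.40 and -0.29.

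A wider list of 119 microtubule genes, of which 110 were tested, showed no shift to one side. In 57 of 110 the log2 fold change was below 0, with a median of -0.01. At an unadjusted p under 0.05, 13 were lower and 13 higher in Mir (11.8% each, against 7.93% and 6.57% of all genes), and 0 passed the adjusted threshold in edgeR. Of the 10 with the smallest p among those whose groups did not overlap, 5 had higher and 5 lower means in Mir cells. Higher were Mark2 (log2 fold change 0.39 ± 0.08), a kinase that releases MAPs from microtubules, Fignl1 (0.61 ± 0.14), a relative of the severing enzyme fidgetin, Ttll5 (0.53 ± 0.14), a tubulin polyglutamylase, Tbce (0.33 ± 0.10), a tubulin folding cofactor, and Tubg1 (0.29 ± 0.08), the gamma-tubulin that nucleates microtubules. Lower were Map9 (-0.66 ± 0.17), a lattice-binding protein, Ttl (-0.52 ± 0.13), which restores the terminal tyrosine of alpha-tubulin, Svbp (-0.48 ± 0.12), a subunit of the enzymes that remove it, Mapk8 (-0.46 ± 0.11), the kinase JNK1, and Macf1 (-0.33 ± 0.09), a linker of microtubules and actin.

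Ttl and Svbp, which act on the same terminal tyrosine, both had separated groups. Ttl had 22.4, 25.4 and 25.1 CPM in Mir 1, 2 and 3, against 31.6, 38.2 and 35.1 CPM in Scr 1, 2 and 3, and Svbp had 98.2, 97.4 and 108 CPM in Mir libraries, against 117, 158 and 147 CPM in Scr libraries. Their adjusted p-values were 0.212 and 0.214 in edgeR, and 0.0247 and 0.028 in DESeq2. Of 19 tested enzymes that modify tubulin, 6 were lower (31.6%, against 7.93% of all genes) and 2 higher (10.5%, against 6.57%) at an unadjusted p under 0.05. Among the 9 lists of other microtubule genes this was the highest share of lower genes, the next being 18.2%. The median log2 fold change of the 19 was -0.01, with 8 above and 11 below 0, so the list as a whole was not shifted. Of 107 other microtubule genes with an adjusted p, DESeq2 called Mark2 and Fignl1 higher (1.87%, against 1.86% of all genes) and Mapk8, Ttl, Svbp, Map9 and Macf1 lower (4.67%, against 2.51%). In the list of the gamma-tubulin ring complex, 7 of 9 tested genes had fold changes above 0, with a median log2 fold change of 0.17; 1 was higher at an unadjusted p under 0.05 and 0 passed the adjusted threshold in edgeR.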

How the data were processed

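Raw read counts per gene were deposited by the authors as whole numbers for 6 libraries, 3 per group. The submitters' processing notes list HTSeq 0.11.0, HISAT2 2.1.0 and DESeq2 1.18.1 with build mm10 (GRCm38); the annotation and strand setting of the counting were not given in the sources used. Per the labels' protocols, RNA with an integrity number above 9.5 was amplified with SMART-seq v4, which does not mark strand, and read as single reads of 50 bases. Summary lines (no feature, ambiguous, not aligned, not uniquely aligned) entered neither library sizes nor tests. Of all listed counts, 21.9 to 23.6% were in genes. Whether a read aligned to several places was listed more than once was not checked. Reads were amplified and carry no molecular identifiers.

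Differences were tested with edgeR 4.0.16 in R 4.3.3 (two-sided quasi-likelihood F test, TMM normalization, filterByExpr), with Benjamini-Hochberg adjustment over 16897 genes and a threshold of 0.05. DESeq2 1.42.0, limma-voom (limma 3.58.1), other filters and size factors, a replicate block and libraries left out were alternatives. Fold changes are log2, Mir over Scr. Levels per kb used exon lengths from GENCODE M21. For marker lists, log2 (CPM + 0.5) was taken relative to the Scr mean. Members in each role were given in full if they had the smallest p or the highest mean CPM or were among named malformation genes; of the other microtubule genes, the 10 with the smallest p and separated groups were named. The members and lists were chosen with earlier results of these data known, so no test was run on a list as a whole.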

Additional observations from a re-analysis of the deposited data

How the results depend on the processing

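With 3 pools per group, spread between pools set the precision (biological coefficient of variation 23.6%). Over all genes 1 was called, against 31 with no filter, 580 by DESeq2, 0 by limma-voom, 0 with the replicate block, 29 with Scr 2 and Mir 3 both left out, and 0 to 2 with a library left out. Members called were 0 under every alternative except DESeq2 with 4, and other microtubule genes 0 except DESeq2 with 7; the summed tubulin families were never called. Between groups, log2 CPM of the libraries correlated at 0.934 to 0.976. Deviations of log2 CPM from each gene's group mean were also compared, between Mir and Scr libraries. These deviations correlated at 0.224, -0.148 and -0.103 in same-numbered libraries, and at -0.308 to 0.36 in differently numbered ones. With 3 libraries per group, these values cannot decide whether the numbers pair the libraries. With the replicate block 13 members were lower at an unadjusted p under 0.05 (a count chosen after seeing the data), against 12. Leaving out a library gave 6 (without Mir 2) to 21 (without Scr 1). The cause was not tested.

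Of the members, 31 kept 1 sign under all 13 alternatives and 18 did not; with all 6 libraries none of the 18 had an unadjusted p under 0.05, while Dclk2 and Map6 did without Scr 2. With Scr 2 and Mir 3 both left out, log2 fold changes turned to -0.16 (Tuba1b), -0.17 (Tubb4b), 0.22 (Map1a), 0.016 (Stmn1), 0.15 (Crmp1), 0.052 (Dpysl4), 0.082 (Nav2), 0.060 (Camsap2), -0.015 (Katna1) and -0.075 (Nde1). Map1a was 0.013 with no filter and 0.0025 in limma-voom. Leaving out 1 library gave the ranges -0.057 to 0.24 (Tuba1b), -0.10 to 0.17 (Tubb4b), -0.15 to 0.19 (Map1a), -0.068 to 0.40 (Map6), -0.82 to 0.30 (Map7), -0.079 to 0.50 (Dclk2), -0.17 to 0.031 (Stmn1), -0.47 to 0.24 (Crmp1), -0.28 to 0.16 (Dpysl4), -0.14 to 0.0017 (Mapre1), -0.52 to 0.031 (Clip1), -0.063 to 0.31 (Clip2), -0.033 to 0.17 (Clasp1), -0.22 to 0.012 (Nav2), -0.22 to 0.0054 (Camsap2), -0.35 to 0.13 (Camsap3) and -0.051 to 0.23 (Katna1). Map7 was not tested under the filter of 50 counts.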
